A study of Homo sapiens with 82 samples.

Results

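Genome-wide binding of LXRA and of LXRB was compared in HT29 cells after 48 h of 10 μM GW3965, using the peaks of 2 ChIP-seq libraries for each receptor. These are 4 of the 34 libraries with a peak list, in a series of 82 samples. A binding site was defined as the merged span of peaks that overlapped by at least 1 bp and came from both replicates of a receptor, which gave 17326 LXRA sites and 9218 LXRB sites. HT29 is a human colorectal adenocarcinoma cell line, and GW3965 is a synthetic agonist of both LXRs. In the 48 h RNA-seq libraries of the series, all 12 listed markers of colon epithelium had at least 1 CPM (a count scaled to library size) in every DMSO library. Of 9 listed markers of other cells, PTPRC, CD3E, VIM, COL1A2 and ALB stayed at or near 0, whereas CD68 had a mean of 7.37 CPM and COL1A1 of 5.63 CPM in DMSO. ACTA2 had a mean of 0.73 CPM in DMSO, and PECAM1 was not among the genes counted.

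The receptors were not captured in the same way. LXRA was pulled down with an anti-FLAG antibody from HT29 cells that stably carried a plasmid for LXRA with a C-terminal 3xFlag tag, whereas LXRB was pulled down with an antibody against the endogenous protein (NR1H2). Both sets of cells were kept in medium with charcoal-stripped serum and received GW3965 for the same time. In these libraries the receptor, the antibody, the level of the protein and the cell line therefore cannot be told apart. Active chromatin was followed by H3K27ac and RNA polymerase II (RNAP2) in 3 conditions with 2 libraries per mark, namely DMSO, GW3965 for 24 h and GW3965 for 48 h. JunD had 2 libraries in DMSO, LXRA and LXRB had 2 each after 2 h of GW3965, and PPARG had 2 after 48 h of 10 μM rosiglitazone, a PPARG agonist. How long the DMSO cells of ChIP-seq were kept is not in the labels. Nothing in the labels ties the H3K27ac, RNAP2, JunD or PPARG libraries to the FLAG-LXRA cells. The chromatin at LXRA sites may therefore have been measured in other cells than the binding.

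LXRA (NR1H3) and LXRB (NR1H2) are nuclear receptors that are activated by oxysterols and bind DNA with RXR as their partner. They switch on genes of cholesterol efflux and fatty acid synthesis, and without a ligand they can hold co-repressors at the same sites. H3K27ac marks active promoters and enhancers, RNAP2 marks transcribed regions and paused promoters, and JunD is a subunit of AP1.

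LXRA libraries held more peaks than LXRB libraries. Replicates 1 and 2 had 18436 and 29263 peaks for LXRA and 11100 and 14788 for LXRB, so the groups did not overlap. With 2 libraries in each group the two-sided exact permutation test gave p = 0.333, the smallest value this design allows. Each peak has a score that grows as the p-value of the peak caller shrinks (10 on this scale is 1 unit of log10), and the median score was 205 and 224 in LXRA libraries and 171 in both LXRB libraries. Median peak widths were alike, from 878 to 940 bp. Peaks covered 18.6 and 31.9 Mb for LXRA and 11.4 and 15.7 Mb for LXRB. The peak lists hold no read counts, so the depth of each library is unknown, and both peak number and score grow with depth.

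Agreement between replicates followed the same order of library size. Of the peaks of LXRA replicate 1, 95.3% overlapped a peak of replicate 2, against 59.5% in the other direction. For LXRB the values were 84.1% and 62.9%. Of LXRB peaks, 77.3% (replicate 1) and 66.9% (replicate 2) overlapped LXRA replicate 1, and 88.4% and 82.4% overlapped the larger LXRA replicate 2. LXRB replicate 1 thus met more peaks in LXRA replicate 2 than in its own second replicate. Conversely, between 33.0% and 53.4% of LXRA peaks overlapped an LXRB library. After the peaks were moved by 100 kb, between 1.78% and 4.94% still overlapped the other library in any of these pairs. 

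Most LXRB sites were also LXRA sites, whereas most LXRA sites were not LXRB sites. Of 9218 LXRB sites, 7446 (80.8%, Wilson 95% interval 80.0 to 81.6) overlapped an LXRA site, and of 17326 LXRA sites, 7371 (42.5%, 41.8 to 43.3) overlapped an LXRB site. Joined together, these made 7333 shared sites. The same sites moved by 100 kb overlapped in 3.47% and 1.80%. The intervals cover counting error only.

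The 9955 LXRA-only sites fell into 6707 with no LXRB peak at all and 3248 with an LXRB peak in 1 replicate, mostly replicate 2 (2263 sites). Of the 1772 LXRB-only sites, 797 had no LXRA peak and 975 had an LXRA peak in 1 replicate, which was replicate 2 in 931. Most LXRB-only sites thus met an LXRA peak in 1 library, nearly always the one with more peaks. With LXRA replicate 2 as the sole LXRA library, 90.9% of LXRB sites were shared, and with LXRB replicate 2 as the sole LXRB library, 66.6% were. The share of LXRA sites moved between 28.6% and 55.6% when a replicate was left out. With 9218 sites for both receptors, taken by rank of score, 62.5% of LXRA and 63.5% of LXRB sites were shared, values that equal numbers of sites force to lie close together, so they do not bear on the difference above. 

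The share of LXRA sites that were shared rose in every step of the LXRA score, whereas that of LXRB sites turned back at the highest LXRB scores. Sites were ranked by the mean of their score ranks in the libraries of a receptor and cut into deciles. For LXRA, 11.1% (9.75 to 12.7) of decile 1 (the lowest) were shared, 34.1% of decile 5, 63.6% of decile 8 and 88.3% (86.7 to 89.8) of decile 10. For LXRB, the share rose from 66.1% (63.0 to 69.1) in decile 1 to 90.9% (88.9 to 92.6) in decile 8, and was 88.8% in decile 9 and 68.4% (65.4 to 71.4) in decile 10. Of the 922 LXRB sites in decile 10, 183 had no LXRA peak in either replicate (19.8%), against 58 of 922 in decile 8 (6.29%). A further 108 of decile 10 had an LXRA peak in 1 replicate.

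**Figure D1:**
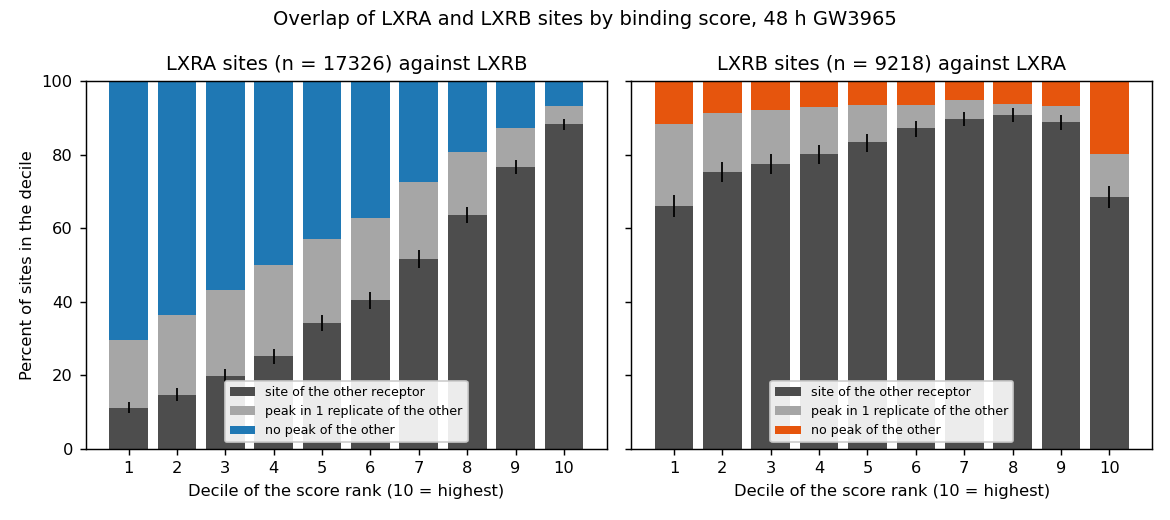
Percent of LXRA sites (left) and LXRB sites (right) that overlapped a site of the other receptor (dark grey, with Wilson 95% intervals as bars), a peak in 1 replicate of it (light grey) or none of its peaks (colour), by decile of the score rank. The dark part climbs from 11.1% to 88.3% for LXRA, whereas for LXRB it peaks at 90.9% in decile 8 and drops to 68.4% in decile 10.

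At the top of the scale, 50 LXRA sites had a score of at least 3100 in both LXRA libraries, and all 50 were shared. The same limit held for 50 LXRB sites, of which 21 were shared, 13 had an LXRA peak in 1 replicate and 16 had none. Scores of 3100 stand at or near the top of what the peak caller wrote. Sites at exactly 3100 in a library are tied in rank there, and their order is not resolved.

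The shared sites with the best mean rank over the 4 libraries were strong in every library. Genes are not given for any site, since no gene coordinates of the build of these peak lists (hg19) were used. The first was chr10:74031699-74038813, with a score of 3100 in all 4 libraries. At chr11:65188176-65198935 the scores were 3063 and 3100 for LXRA and 3100 in both LXRB libraries. Both sites also had JunD scores of 3100 in both DMSO libraries and RNAP2 scores of 3100 in all 6 libraries, the DMSO libraries included. 

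The other 3 of the leading shared sites had weaker active chromatin in DMSO than these. At chr6:16128665-16132081 both LXRA scores were 3100 and the LXRB scores were 2883 and 2364, and the RNAP2 scores were 206 and 657 in DMSO, 625 and 1052 at 24 h, and 1158 and 798 at 48 h. Near each other on chromosome 9 lay chr9:107688259-107691070 and chr9:107752734-107756797, with both LXRA scores at 3100 in each. The first of this pair had LXRB scores of 3100 and 1707, and the second 2146 and 2564. Neither had an RNAP2 peak in DMSO. At chr9:107688259-107691070, RNAP2 scores reached 871 and 1853 at 24 h and 3157 and 2581 at 48 h, while H3K27ac had a peak in 1 DMSO library (384) and scores of 1834 and 990 at 48 h. At chr9:107752734-107756797, RNAP2 scores were 273 and 431 at 24 h and 656 and 510 at 48 h, and H3K27ac scores went from 110 and 387 in DMSO to 2758 and 1037 at 48 h. These 3 sites had no JunD peak in DMSO.

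LXRA-only sites with no LXRB peak reached high scores too, and none of the 5 leading ones had an H3K27ac peak in DMSO. The leading one, chr7:16700146-16701485, had LXRA scores of 2522 and 2807, no H3K27ac peak in DMSO, and H3K27ac scores of 117 and 180 at 24 h and 257 and 414 at 48 h. It had RNAP2 peaks in all 6 libraries, with scores from 170.0 to 291, JunD scores of 318 and 325 and weak LXRB peaks at 2 h (186 and 139). At chr6:111550603-111552272 the LXRA scores were 2002 and 2949, and weak RNAP2 peaks were present in both DMSO and both 48 h libraries (180 and 109 at 48 h). At chr2:227379440-227380882 they were 1712 and 2970, with H3K27ac scores of 255 and 437 at 48 h and none in DMSO. The last 2 of these, on chromosome 8 (1887 and 2538) and at chr2:143499187-143500567 (1781 and 2434), had no H3K27ac, RNAP2, JunD or PPARG peak in any library used. All 5 already carried an LXRA peak in both libraries at 2 h.

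The leading LXRB-only sites with no LXRA peak at 48 h were of another kind. At chr3:9833887-9835082 the LXRB scores were 3170 and 3134, at chr17:37355770-37357409 they were 3100 and 3193, and at chr9:15510471-15511743 they were 3110 and 3100. The last 2 of the 5, chr11:575519-576735 and chr12:110436335-110438280, were at 3100 in both libraries, tied with other sites and taken in order of chromosome. All 5 had H3K27ac and RNAP2 peaks in all 12 libraries of these marks, DMSO included. For the first, H3K27ac scores were 925 and 1572 in DMSO and 1482 and 597 at 48 h, and RNAP2 scores were 544 and 954 in DMSO and 1345 and 945 at 48 h. JunD had a peak at 1 of the 5 (245 and 225 at chr17:37355770-37357409). LXRB was already bound at all 5 at 2 h, with scores from 2258 to 3100, and LXRA had a weak peak at 2 h in 1 library at 1 of them (157 at chr11:575519-576735).

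Where both receptors bound, their scores were ranked less alike than the scores of replicates. Over 7337 sites with a peak in all 4 libraries, Spearman's rho was 0.902 between the LXRA replicates and 0.760 between the LXRB replicates. The 4 pairs of an LXRA with an LXRB library gave 0.498, 0.429, 0.502 and 0.446. These correlations run across sites of the same libraries, which are not independent replicates, and are given as a description. Both replicates of a receptor were called against the same input library, and the part of that library in the correlations was not tested.

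**Figure D2:**
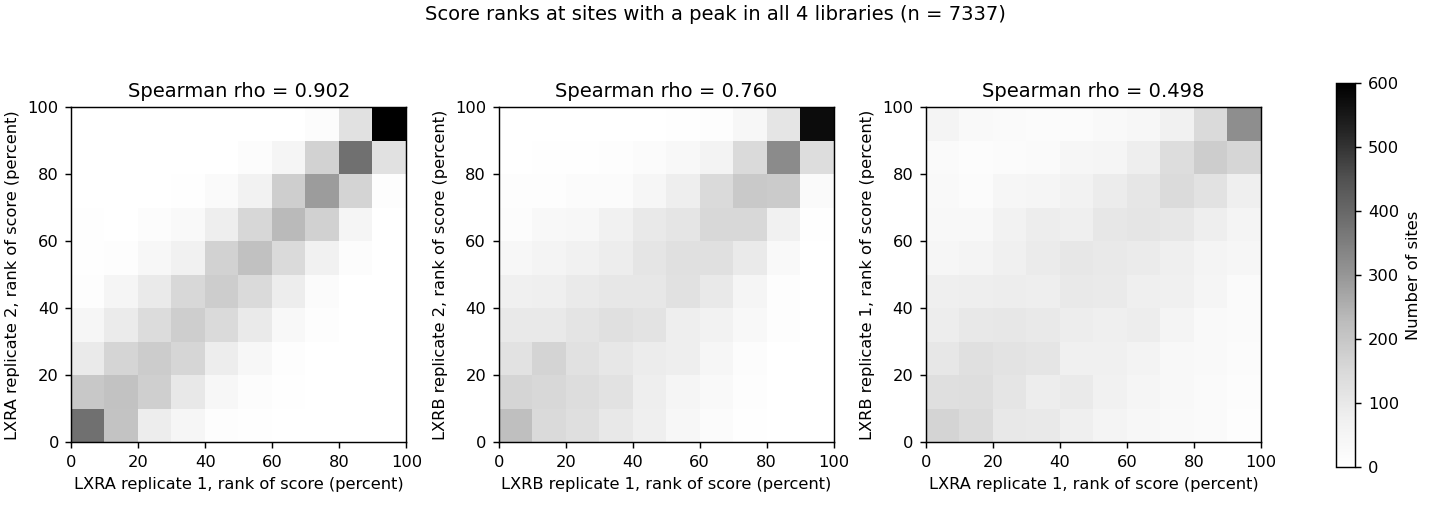
Number of sites (grey scale) by rank of score in percent, for the LXRA replicates (left), the LXRB replicates (middle) and LXRA replicate 1 against LXRB replicate 1 (right), at the 7337 sites with a peak in all 4 libraries. The counts hug the diagonal between replicates (rho 0.902 and 0.760) and spread away from it between receptors (0.498).

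At 2358 of these sites (32.1%) both LXRA libraries ranked the site above both LXRB libraries, and at 2219 (30.2%) the order was the opposite. A gap of at least 25 points of rank between the nearest pair of libraries left 609 sites that leaned to LXRA (8.30%) and 586 that leaned to LXRB (7.99%). The 25 points were chosen after the ranks had been seen. Since these sites were selected by rank, only the marks, which the selection did not use, are compared between them.

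Sites that leaned to LXRB carried more active chromatin than those that leaned to LXRA. H3K27ac was present in both 48 h libraries at 78.8% (75.4 to 82.0) of LXRB-leaning and 62.6% (58.7 to 66.3) of LXRA-leaning sites, and in both DMSO libraries at 78.7% and 47.5%. For RNAP2 at 48 h the shares were 92.2% (89.7 to 94.1) and 66.7% (62.8 to 70.3), and for JunD 58.4% and 36.3%. PPARG went the other way, with 27.1% (23.7 to 30.9) of LXRB-leaning and 38.4% (34.6 to 42.3) of LXRA-leaning sites. Over all 7337 sites the share with PPARG was 47.1%, above both. LXRB-leaning sites were also wider (median 1616.5 bp against 1256 bp), and the part of width in these shares was not tested.

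Single sites show how far the receptors could part. At chr1:154908664-154910438 the scores were 104 and 129 for LXRA and 3100 in both LXRB libraries, and H3K27ac and RNAP2 were present in all conditions. At chr4:55597202-55598588 they were 2091 and 2537 for LXRA against 114 and 115 for LXRB, with no reproducible H3K27ac, RNAP2 or JunD site. These are the sites with the widest gap in each direction, chosen once the values were known.

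Active chromatin was found more often at shared and LXRB-only sites than at LXRA-only sites. In the 6 H3K27ac libraries, 72.8% ± 5.17 of shared sites overlapped a peak (mean ± SD over libraries, n = 6), 48.5% ± 4.61 of LXRA-only sites and 67.6% ± 4.44 of LXRB-only sites. In the 6 RNAP2 libraries the shares were 88.4% ± 4.71, 52.3% ± 9.32 and 79.4% ± 5.83. Sites moved by 100 kb overlapped H3K27ac or RNAP2 in 4.05% to 8.75%, in every class and condition. The moved values count mark sites found in both replicates, so the background of single libraries may differ. 

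The difference between shared and LXRA-only sites was 24.3 percentage points for H3K27ac (19.7 to 27.1 over the 6 libraries) and 36.1 for RNAP2 (30.6 to 41.2). LXRB-only sites exceeded LXRA-only sites by 19.1 points for H3K27ac (12.0 to 23.5) and by 27.2 for RNAP2 (22.1 to 32.6). Shared sites exceeded LXRB-only sites by 8.95 points for RNAP2 (6.45 to 11.6). Each of these differences had the same sign in 6 of 6 libraries, and the two-sided exact sign-flip permutation test over libraries gave p = 0.03125, the smallest that 6 libraries allow (Benjamini-Hochberg over 6 tests, also 0.03125). This test covers the spread between libraries of the marks, not between libraries of the receptors.

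For H3K27ac, shared and LXRB-only sites were not separated under every definition. The difference was 5.25 points (1.45 to 12.3, exact permutation p = 0.03125), but it turned to -5.18 (p = 0.0625 by the same exact test) when shared sites needed centres at most 250 bp apart and to -1.83 (exact p = 0.281) with sites cut to 400 bp about their centre. The other 5 differences kept their sign and their p under both of these definitions.

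**Figure D3:**
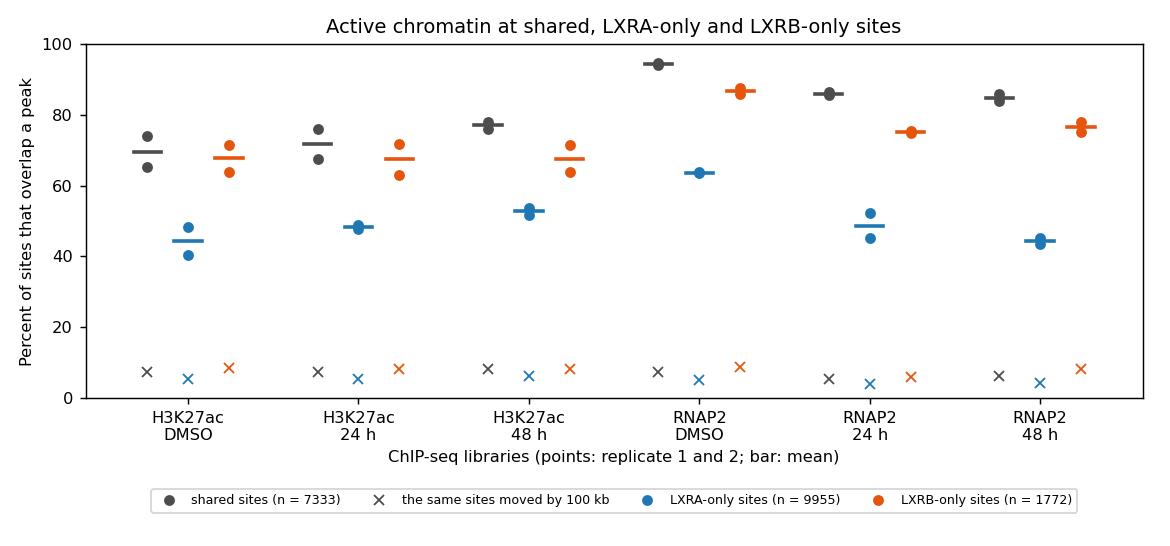
Percent of shared (grey), LXRA-only (blue) and LXRB-only (orange) sites that overlapped a peak in each replicate library of H3K27ac and RNAP2 (points, with the mean as a bar), and the same sites moved by 100 kb (crosses). Crosses count mark sites found in both replicates. LXRA-only sites lie lowest in all 6 sets of libraries, between 40.3% and 53.8% for H3K27ac and between 43.6% and 63.9% for RNAP2.

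Peaks in 1 or both marks sorted the sites further. At 48 h, 64.6% of shared sites had reproducible H3K27ac and RNAP2 together, against 54.5% of LXRB-only and 31.1% of LXRA-only sites. Neither mark was found at 12.3%, 19.6% and 46.0%. RNAP2 without H3K27ac was most common at LXRB-only sites (18.7%, against 16.1% of shared and 7.51% of LXRA-only sites), and H3K27ac without RNAP2 at LXRA-only sites (15.4%, against 6.94% and 7.22%). No peak of H3K27ac, RNAP2 or JunD in any library used was recorded at 1759 LXRA-only sites (17.7%), 91 shared sites (1.24%) and 74 LXRB-only sites (4.18%).

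H3K27ac was more frequent at 48 h than in DMSO at shared and LXRA-only sites but not at LXRB-only sites. Counting peaks present in both replicates, H3K27ac went from 63.9% of shared sites in DMSO to 62.4% at 24 h and 71.6% at 48 h, and from 39.2% to 40.3% and 46.5% of LXRA-only sites. At LXRB-only sites it went from 64.4% to 61.2% and 61.7%. In single libraries the shared sites had 65.3% and 74.0% in DMSO and 78% and 76.1% at 48 h, which did not overlap, and the LXRA-only sites 40.3% and 48.4% against 53.8% and 51.8%, which did not overlap either. For LXRB-only sites the values were 63.8% and 71.5% in DMSO and 71.5% and 63.8% at 48 h. With 2 libraries a group, no permutation test could reach 0.05, and the number of H3K27ac peaks was 23015 and 27701 in DMSO and 31824 and 27456 at 48 h, higher in replicate 1 but not in replicate 2.

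RNAP2 was less frequent after GW3965 in each class. Its share was 92.6% of shared sites in DMSO, 80.1% at 24 h and 80.8% at 48 h, and for LXRA-only sites 57.8%, 39.0% and 38.6%. For LXRB-only sites it was 83.4%, 67.9% and 73.2%. A gain of H3K27ac, with peaks in both 48 h libraries and none in DMSO, was recorded at 373 shared (5.09%), 556 LXRA-only (5.59%) and 40 LXRB-only sites (2.26%), and a loss at 37, 50 and 19. RNAP2 was gained at 56, 91 and 13 sites and lost at 498 (6.79%), 1402 (14.1%) and 139 (7.84%). Single libraries had 94.6% and 94.1% of shared sites in DMSO and 85.8% and 83.8% at 48 h, so the groups did not overlap, and neither did they at LXRA-only or LXRB-only sites. The RNAP2 libraries held 30638 and 35010 peaks in DMSO, 27260 and 27249 at 24 h, below both DMSO libraries, and 32831 and 28897 at 48 h. The part of these peak numbers in the shares was not tested. Among the LXRB-only sites with no LXRA peak, 36 of 797 (4.52%) lost RNAP2. The percentages of gain and loss are of all sites of a class. RNAP2 was found in both DMSO libraries at 6792 shared, 5753 LXRA-only and 1478 LXRB-only sites, and only these could lose it. H3K27ac was found in both DMSO libraries at 4686, 3905 and 1141 sites of these classes, and only these could lose it. A site with any DMSO peak of H3K27ac could not gain it. The classes thus had unlike room to gain, and their shares of gain are not compared. Gain and loss over all H3K27ac or RNAP2 sites of the cells are not given, so the classes are not set against a general rate.

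LXRA-only sites had less active chromatin than shared sites at every level of LXRA score. Within each quartile of the LXRA score rank, shared sites exceeded LXRA-only sites by 20.4 to 31.0 points for H3K27ac and by 29.5 to 41.8 points for RNAP2 (means over 6 libraries, exact permutation p = 0.03125 in each quartile). The widest gap was in quartile 4, the highest. Between shared and LXRB-only sites the RNAP2 difference ran from 2.41 to 10.6 points over the quartiles of the LXRB score rank, and the H3K27ac difference from -2.38 to 9.88 points, with the lowest values of both in quartile 2 (exact permutation p = 0.0625 for RNAP2 and 0.188 for H3K27ac).

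**Figure D4:**
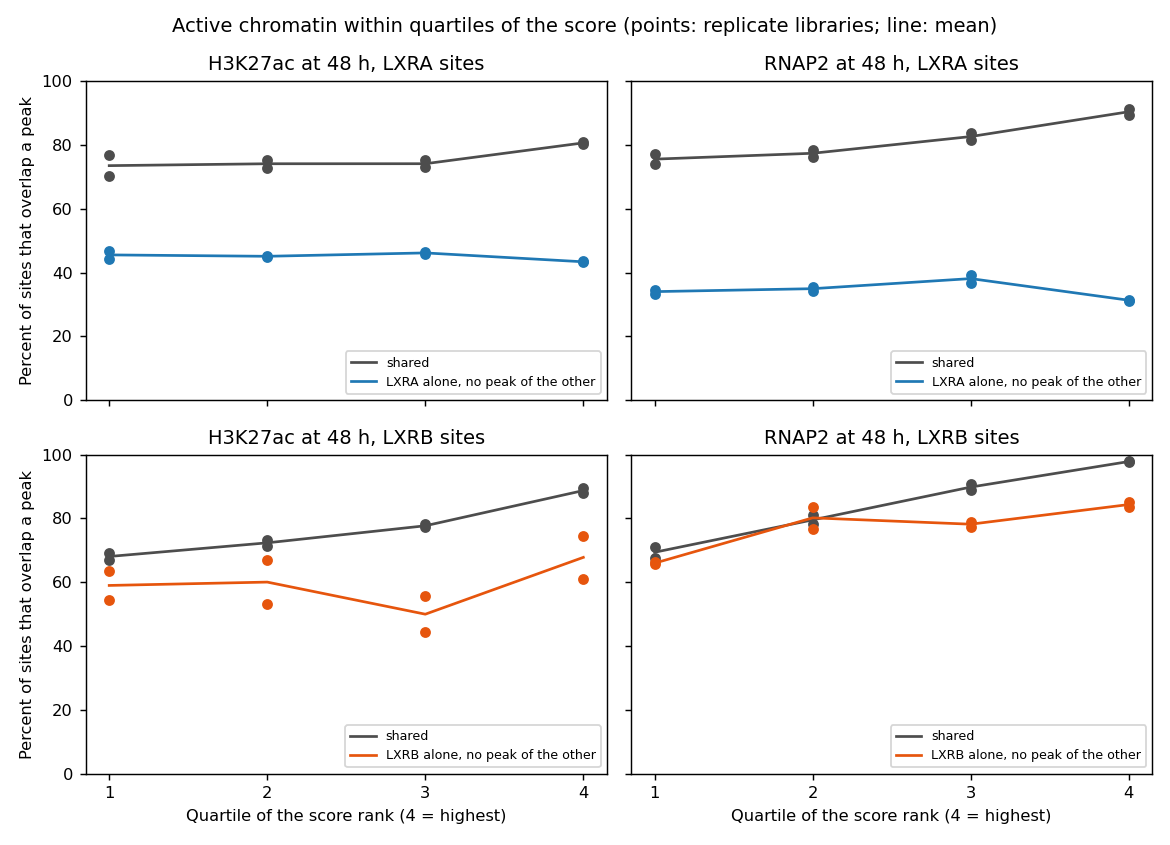
Percent of sites that overlapped an H3K27ac (left) or RNAP2 (right) peak at 48 h, by quartile of the LXRA (top) or LXRB (bottom) score rank, for shared sites (grey) and for sites with no peak of the other receptor (colour). In LXRA quartile 4, shared sites had H3K27ac in 81.0% and 80.3% and LXRA sites without an LXRB peak in 43.3% and 43.5%; points are the 2 replicate libraries and lines their mean.

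Strong LXRA sites without an LXRB peak often lay outside active chromatin of the mark libraries, which no label ties to the FLAG-LXRA cells. In quartile 4 of the LXRA score rank, 490 sites had no LXRB peak. Of these, 34.7% (30.6 to 39.0) had no H3K27ac, RNAP2 or JunD peak in any library used, against 1.65% of the 3450 shared sites in this quartile. Reproducible H3K27ac was found at 21.0% (17.6 to 24.8) in DMSO, 27.3% at 24 h and 37.8% (33.6 to 42.1) at 48 h. In single libraries these sites had 22.9% and 29.2% in DMSO and 43.3% and 43.5% at 48 h, which did not overlap, and 57 of them (11.6%) gained H3K27ac. Only sites without a DMSO peak could gain it, and 66.1% of the shared sites in this quartile had reproducible H3K27ac in DMSO. The gain is therefore not set against theirs. RNAP2 stood at 33.1% in DMSO and 25.9% at 48 h.

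The 183 LXRB sites of decile 10 without an LXRA peak mostly lay in chromatin that was already active in DMSO. Reproducible H3K27ac was found at 78.1% (71.6 to 83.5) in DMSO and 71.0% (64.1 to 77.1) at 48 h, and RNAP2 at 85.8% (80.0 to 90.1) and 87.4% (81.8 to 91.5). H3K27ac was gained at 2 of the 183 sites and lost at 2. The 631 shared sites of this decile had H3K27ac at 89.5% and RNAP2 at 99.4% at 48 h.

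These 183 sites carried other factors less often than the shared sites of the same decile. JunD was found at 15.8% (11.3 to 21.8) of them, against 76.7% (73.2 to 79.8) of the shared sites in decile 10. PPARG was found at 1.64% (0.559 to 4.71), close to the 1.09% of the sites moved by 100 kb, against 65.0% of the shared sites. LXRB at 2 h was present at 89.6% (84.4 to 93.3) and LXRA at 2 h at 3.28% (1.51 to 6.97), with 3.83% for the moved sites, although LXRA replicate 1 at 2 h alone had a peak at 24.0% and replicate 2 at 4.37%. LXRB at 2 h was measured with the same antibody as at 48 h. Low JunD and PPARG were not particular to these 183 sites. In decile 10 of the LXRA score, the 116 sites with no LXRB peak had JunD at 12.1% and PPARG at 3.45%. The 108 sites of LXRB decile 10 with an LXRA peak in 1 replicate had 20.4% and 7.41%.

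Over all sites, JunD in DMSO was found at 56.6% (55.4 to 57.7) of shared sites, 27% of LXRB-only (479 of 1772) and 18.4% (17.6 to 19.1) of LXRA-only sites. The order was the same in both JunD libraries, with 59.8% and 65.0%, 30.8% and 32.4%, and 21.4% and 26.6%. PPARG after rosiglitazone overlapped 47.1% of shared, 15.2% of LXRA-only and 9.88% of LXRB-only sites, and its libraries differed widely (75.3% and 47.2% of shared sites). The order of the last 2 classes turned with centres at most 250 bp apart (17.6% of LXRA-only and 22.5% of LXRB-only sites) and with 400 bp windows (16.4% and 18.8%). With 2 libraries a mark these orders have no test that could pass 0.05.

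Many 48 h sites already had a peak at 2 h. LXRA at 2 h was found in both libraries at 83.7% of shared, 55.2% of LXRA-only and 20.3% of LXRB-only sites. LXRB at 2 h was found at 38.6% (37.5 to 39.8) of shared, 29.6% (27.5 to 31.7) of LXRB-only and 3.50% of LXRA-only sites, and its libraries were small (7583 and 4555 peaks). Neither receptor had a 2 h peak in any library at 4.43% of shared, 23.0% of LXRA-only and 26.9% of LXRB-only sites. Of LXRB-only sites, 50.2% had an LXRA peak in at least 1 of the 2 h libraries.

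**Figure D5:**
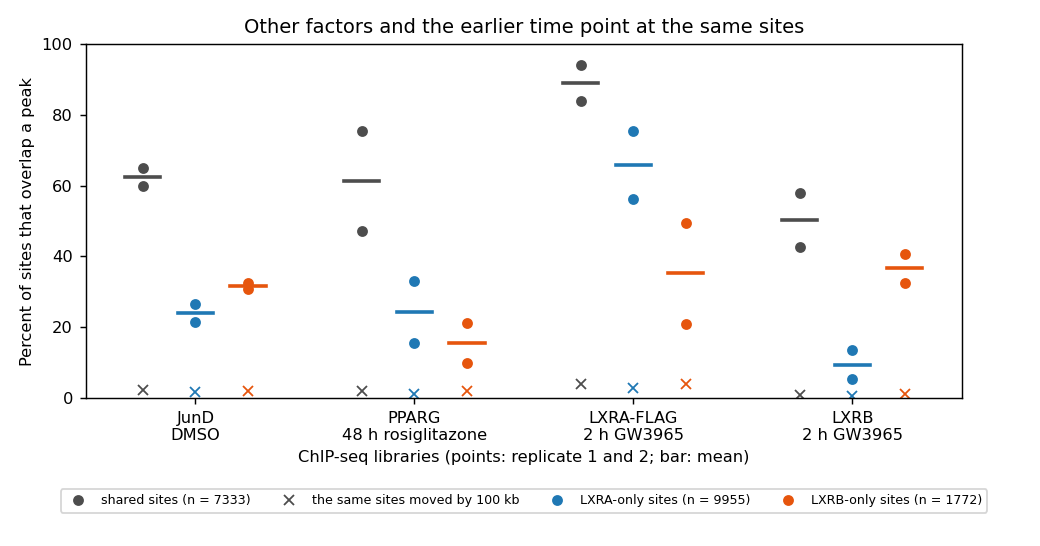
Percent of shared (grey), LXRA-only (blue) and LXRB-only (orange) sites that overlapped a peak of JunD in DMSO, PPARG after 48 h of rosiglitazone, and LXRA or LXRB after 2 h of GW3965, in each replicate library (points; bar, mean) and after moving the sites by 100 kb (crosses). Shared sites lie highest for each factor, and LXRA-only sites lie lowest for LXRB at 2 h (13.6% and 5.26%). Crosses count sites found in both replicates, for which LXRA-only sites had LXRB at 2 h in 3.50%, against 0.673% after moving.

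Where both receptors bound, their peak centres lay at the median almost as close as those of replicates, but the largest distances were wider. The median distance between the centres of overlapping peaks was 51 bp between LXRA replicates, 52 bp between LXRB replicates and from 54.5 to 64 bp between LXRA and LXRB libraries. Decile 10 of these distances began at 211 bp (LXRA replicates), 242 bp (LXRB replicates) and from 263 to 362.5 bp between receptors. LXRA-only sites had a median width of 941 bp, against 1251 bp for the LXRA sites that were shared, whereas LXRB-only sites had 1087 bp, against 1011 bp for the LXRB sites that were shared. Within 10 kb of a shared site lay 17.3% of LXRA-only and 16.5% of LXRB-only sites, against 8.91% and 8.75% after moving them by 100 kb.

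Along the chromosomes, LXRB sites without an LXRA peak were unevenly spread. Chromosome 19 held 9.41% (7.57 to 11.6) of these 797 sites, against 3.65% (3.25 to 4.11) of shared sites and 2.55% (2.20 to 2.95) of LXRA sites without an LXRB peak. Chromosome X held 5.14% (3.81 to 6.90), against 1.92% and 2.55%. In LXRB decile 10 the 183 sites without an LXRA peak had 12.0% on chromosome 19 and 9.29% on chromosome X. These intervals treat sites as independent, which neighbouring sites are not. Chromosomes 19 and X were not chosen in advance, and others differed too. Chromosome 16 held 5.65% of the 797 sites against 2.37% of shared sites, and chromosome 2 held 4.52% against 8.24%. The cause was not tested.

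RNA of the receptors themselves differed with GW3965, in opposite directions. It was measured in 4 libraries per group at 48 h, of HT29 cells with 32312041 to 38577979 counts in DMSO and 36537256 to 50938082 with GW3965. The 48 h RNA libraries of 10 μM rosiglitazone and of 10 μM T0901317, another LXR agonist, entered the same fit. Of the markers of other cells, CD68 went from a mean of 7.37 to 13.6 CPM (log2 fold change 0.88, edgeR adjusted p = 6.17e-07) and COL1A1 from 5.63 to 8.14 CPM (0.53, edgeR adjusted p = 0.000868), and their part in the RNA values was not tested. In bulk RNA, fewer cells of a type and less RNA per cell cannot be told apart. Nothing in the labels ties these RNA libraries to the FLAG-LXRA cells. NR1H3 (ENSG00000025434.14), which encodes LXRA, had 83.2, 79.1, 67.3 and 74.8 CPM in DMSO and 229, 240.1, 257 and 227 CPM with GW3965. The groups lay far apart, and NR1H3 rose by a log2 fold change of 1.65 (SE 0.06, adjusted p = 2.24e-13 by edgeR's quasi-likelihood test with Benjamini-Hochberg adjustment). NR1H2 (ENSG00000131408.7), which encodes LXRB, had 63.6, 60.6, 62.7 and 66.9 CPM in DMSO and 54.0, 51.7, 55.1 and 52.0 CPM with GW3965. These groups did not overlap either, and NR1H2 changed by -0.25 on the log2 scale (SE 0.06, edgeR adjusted p = 0.000991), below the fold change of 2 asked of a call. CPM values are not scaled for gene length, so the levels of the 2 genes are not compared.

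The nuclear receptor partners and cofactors were compared next. Of the 8 listed LXR genes and partners, 1 (NR1H3) was called higher and 0 lower in edgeR, where a call asks for a fold change of 2 or more with an adjusted p below 0.01. Of all 22470 genes tested, 3.24% were called higher and 2.54% lower. At the same adjusted p without the fold limit, 4 of the 8 were lower and 2 higher, beside 17.5% and 16.1% of all genes, with the co-repressor NCOR1 at -0.41 and RXRA, the partner of both LXRs, at 0.43 on the log2 scale.

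Among 36 LXR target genes, 26 were tested, 10 were called higher and 1 lower. The median log2 fold change of the tested targets was 0.67, beside 0.00 over all genes. ABCA1, the cholesterol efflux transporter, had 3.21, 2.46, 1.85 and 2.14 CPM in DMSO and 136, 122, 143 and 124 CPM with GW3965, a log2 fold change of 5.77 (SE 0.13). ABCG1, which also exports cholesterol, rose by 3.38 and the fatty acid synthase FASN by 3.17. SCD, the stearoyl-CoA desaturase, rose by 2.57, LPCAT3 by 2.18 and SREBF1, the transcription factor of fatty acid synthesis, by 2.16. PLTP (2.19), MYLIP (1.74), INSIG1 (1.71) and ACACA (1.12) were the other called genes, all on the log2 scale. APOC1 changed by -1.34 (SE 0.40, edgeR adjusted p = 0.00973) from 0.558 ± 0.251 to 0.213 ± 0.105 CPM (mean ± SD, n = 4), and its call was lost without any 1 of 6 of the 8 libraries (adjusted p from 0.0133 to 0.0595).

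AP1 subunits went down together in the RNA. Of 9 listed subunits 8 were tested, 5 were called lower and 0 higher, and all 8 were lower at the same adjusted p without the fold limit, beside 17.5% of all genes. The log2 fold changes of the called genes were -3.14 for ATF3, -2.40 for FOSL1, -1.43 for FOS, -1.42 for FOSB and -1.39 for JUNB. JUND, the subunit followed by ChIP-seq, changed by -0.70 (SE 0.10, edgeR adjusted p = 1.23e-05).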

How the data were processed

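HT29 ChIP-seq peaks and 48 h RNA-seq counts were used. For ChIP-seq, reads were aligned with Bowtie and peaks called with MACS on hg19 according to the submitters' processing notes, in each replicate against an input library that the replicates of a receptor shared, and the authors deposited for each peak a score, minus 10 times the log10 of its p, of at least 100. For RNA-seq, the authors deposited whole-number counts per Ensembl gene (TopHat and Cufflinks are named in those notes); no source used here gives the strand setting of the counting.

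Overlaps were computed in Python (3.11.15), with numpy (2.4.6), scipy (1.17.1) and pandas (2.3.3), and matplotlib (3.10.9) made the plots. LXRA-only and LXRB-only sites overlapped no site of the other receptor. A mark was present where a peak of a library, or a site found in both replicates, overlapped by at least 1 bp. Score ranks are percentiles within a library. Named sites were the 5 with the best mean rank in each class, those of 1 receptor having no peak of the other. The sign-flip test over 6 mark libraries and the gap of 25 points were chosen after the data had been seen. RNA-seq treatments were replicated according to the study's methods, whereas nothing says that ChIP-seq replicates were separate cultures, so their p-values measure the spread between libraries, which may be technical.

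All 16 RNA libraries of 48 h were fitted with edgeR 4.0.16 in R 4.3.3 (filterByExpr, TMM, quasi-likelihood test, Benjamini-Hochberg over 22470 genes), with DESeq2 1.42.0 as an alternative. They were 4 each of DMSO, GW3965, T0901317 and rosiglitazone, which share 1 filter and 1 estimate of the spread. Values were given for NR1H3, NR1H2 and the listed LXR targets that were called; those of NCOR1, RXRA, CD68, COL1A1 and the AP1 subunits were added after they had been seen. Both methods were tested on simulated data. Of the LXR target list, 2 genes are not reported here and were left out of its counts, but stayed in the fit. Members, gene lists and classes were chosen with earlier results of these data known. Read depth at sites, motifs and genes near sites were not analysed here.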

Additional observations from a re-analysis of the deposited data

How the results depend on the processing

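Peak numbers and shares depended on the score limit, the number of sites and the larger replicates. With scores of at least 200 there were 9069 LXRA, 3849 LXRB and 2906 shared sites, and 32.2% of LXRA sites were shared; with peaks of either replicate there were 30037, 16472 and 13377. With equal numbers (9218) the shares were 62.5% (LXRA) and 63.5% (LXRB), and with centres at most 250 bp apart 70.4% of LXRB sites were shared. Leaving out a receptor library gave 17326 to 29263 LXRA sites, 9218 to 14788 LXRB sites, shares of 28.6% to 55.6% (LXRA) and 66.6% to 90.9% (LXRB), and a mean rho between receptors of 0.443 to 0.515 (0.417 with scores of at least 200). The H3K27ac difference between shared and LXRB-only sites became -5.18 points with the centre rule, -1.83 with 400 bp windows and -2.38 in LXRB quartile 2, and fell short of the threshold at 2.72 with scores of at least 200 (exact p = 0.25) and 1.90 in quartile 1 (exact p = 0.125). For RNAP2 it was 2.41 in quartile 2 (exact p = 0.0625); the cause was not tested. The H3K27ac and RNAP2 differences from LXRA-only sites kept sign and threshold in all alternatives run. RNA counts at a fold change of 1.5 were 1859 higher and 1749 lower. Same-numbered RNA libraries of GW3965 and DMSO did not deviate together (correlations -0.00131 to 0.0308), and a replicate block gave 720 higher and 567 lower genes, against 727 and 570 without it. Genes within 10 or 50 kb of sites were not run, since hg19 gene coordinates were not used here. The files carry no read depth, which limits every peak count.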
